A study of Mus musculus with 9 samples.

Results

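Of the 24419 gene symbols in a mouse liver count table, 8 are described here, namely Olfr541, D7Ertd143e, Gpr171, Mfhas1, Crip3, Ackr2, Btf3l4 and Rhobtb1. All 8 were picked by their measured values, as genes outside the known liver pathways with some of the largest falls in either of the tumour models against the control group. Their levels in those comparisons are therefore a description and carry no test, and so are their differences between the models, which rest on the same libraries. What the choice did not use, chiefly the genes that lie beside them in the genome and the other genes of their families, is tested where its counts allow.

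RNA came from liver of male FVB mice, 3 libraries in each of 3 groups. MODEL1 mice, all 18 weeks old, carried a pair of plasmid-borne mutants in their hepatocytes, namely G31A of NFE2L2, the gene of the transcription factor NRF2, and T41A of CTNNB1, the gene of beta-catenin. In MODEL2 mice, aged 19, 20 and 22 weeks, the NFE2L2 mutant was T80K and the beta-catenin mutant again T41A. Hydrodynamic tail vein injection, a fast injection of a large volume by which plasmid enters mainly hepatocytes, delivered 20 µg of each plasmid in 2 ml saline, and Sleeping Beauty transposase moved the constructs into the chromosomes. The design text gives an age at injection of 6 to 8 weeks and states that both mutant pairs formed hepatocellular carcinoma. CTRL mice were 13, 13 and 17 weeks old. The sample labels do not say whether these mice were injected; the design text mentions a control with wild-type NFE2L2 and T41A beta-catenin. Every model mouse was older than every CTRL mouse, so age and group cannot be told apart fully. The labels do not say whether a library held tumour, surrounding liver or both.

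The genes come from unrelated families. Olfr541 encodes an olfactory receptor, a G protein-coupled receptor of a very large family best known from sensory neurons of the nose. Gpr171 encodes a receptor for the peptide BigLEN, which is cut from the precursor encoded by Pcsk1n, and sits in a cluster of P2Y-like receptor genes. Ackr2 encodes an atypical chemokine receptor that binds inflammatory CC chemokines and takes them into the cell for degradation without G protein signalling, and it is best known from lymphatic endothelium. D7Ertd143e is a long noncoding RNA whose locus holds the miR-290 to miR-295 cluster, the main microRNA cluster of mouse embryonic stem cells. Mfhas1 encodes a leucine-rich repeat protein of the ROCO family with a role in Toll-like receptor signalling. Rhobtb1 encodes an atypical GTPase with BTB domains that bind the ubiquitin ligase scaffold CUL3, the same scaffold that KEAP1 uses to have NRF2 degraded. Crip3 encodes a small cysteine-rich LIM domain protein, and Btf3l4 a paralogue of BTF3, the beta subunit of the nascent polypeptide-associated complex at the ribosome.

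The libraries were shallow, with totals from 219504 to 325177 counts, so a gene at 0 could still have a level of up to 3 counts, or 8.78 to 13.6 scaled CPM. Scaled CPM are counts per 1e6 of library size, with sizes adjusted by trimmed-mean (TMM) factors. The ribosomal RNA precursor Rn45s took 2.20% to 13.4% of counts and exceeded 8% in CTRL replicate 1 and MODEL1 replicates 1 and 3. All 12 genes of a hepatocyte marker list were above 0, yet together they held only 0.293% to 0.355% of counts in CTRL, 0.173% to 0.341% in MODEL1 and 0.193% to 0.266% in MODEL2. The strand setting of the counting is not given, and its part in these shares and in the levels of the 8 genes was not tested. In bulk liver, fewer cells of a type and less RNA per cell cannot be told apart. Nothing in the labels says more of how the 3 mice of a group are related, so errors measure the spread between these samples.

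The microRNA cluster at D7Ertd143e is shown first, because it places this provisional symbol in the genome. D7Ertd143e has no entry of that name in the GENCODE M21 models and was placed with RefSeq on GRCm38.p6 (the build called mm10), at chr7:3218784-3221015 on the plus strand. No exon positions were used for it, so its whole span of 2232 bases was taken as exon. That span contains the hairpins of Mir291a, Mir292, Mir291b, Mir293, Mir294 and Mir295 on the same strand. Mir290a ends 75 bases before its start. For Mir292 no 3p arm was found in the sequences used, so the printed set is not complete. The 3p arms printed below, from RefSeq and 5′ to 3′, carry the seed (bases 2 to 8) in capitals, and 3 of these 6 arms share 1 seed.
mmu-miR-291a-3p: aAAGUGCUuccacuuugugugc
mmu-miR-294-3p: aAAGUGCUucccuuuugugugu
mmu-miR-295-3p: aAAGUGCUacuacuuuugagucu
mmu-miR-290a-3p: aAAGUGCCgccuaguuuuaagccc
mmu-miR-291b-3p: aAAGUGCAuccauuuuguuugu
mmu-miR-293-3p: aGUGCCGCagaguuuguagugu

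The start of D7Ertd143e and the Mir290a hairpin lie in 1 promoter window, the 250 bases before to 50 bases after the RefSeq start. It is chr7:3218534-3218833 on the plus strand, and the hairpin is in capitals to show how closely the 2 counted features adjoin.
D7Ertd143e window: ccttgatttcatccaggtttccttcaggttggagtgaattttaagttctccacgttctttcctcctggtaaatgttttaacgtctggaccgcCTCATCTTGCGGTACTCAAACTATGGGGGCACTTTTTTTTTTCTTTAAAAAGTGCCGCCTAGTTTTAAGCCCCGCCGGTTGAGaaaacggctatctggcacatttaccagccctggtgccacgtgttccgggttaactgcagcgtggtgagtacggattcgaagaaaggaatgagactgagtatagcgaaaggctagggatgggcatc

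RefSeq windows were found for 5 of the 8 genes, 7 windows in all. They were searched on both strands for the core of the antioxidant response element bound by NRF2 (TGACNNNGC), for the TCF/LEF site of the beta-catenin pathway (CTTTGAT) and for a site of the hepatocyte factor HNF4A (CAAAGTCCA). The antioxidant core was matched in 1 window of Rhobtb1, on the minus strand, and in 12.4% of the 32851 promoter windows of that table. The TCF/LEF site was matched only in the window of Olfr541, on the plus strand, against 3.73% of all windows. The HNF4A site was in none of the 7 windows and in 0.475% of all windows. A match describes these letters only. Both windows with a match are printed with the matching bases in capitals. The Olfr541 window lies inside the longer GENCODE gene body, as RefSeq starts the gene further downstream, and the Rhobtb1 window belongs to 1 of 3 RefSeq starts.
Olfr541 window, chr7:140704003-140704302, plus strand: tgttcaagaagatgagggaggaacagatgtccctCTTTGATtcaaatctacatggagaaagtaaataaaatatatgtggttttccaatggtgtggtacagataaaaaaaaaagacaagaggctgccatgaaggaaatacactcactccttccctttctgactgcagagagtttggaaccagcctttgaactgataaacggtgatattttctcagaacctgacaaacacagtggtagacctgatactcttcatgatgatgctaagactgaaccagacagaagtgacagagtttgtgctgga
Rhobtb1 window, chr10:69212407-69212706, plus strand: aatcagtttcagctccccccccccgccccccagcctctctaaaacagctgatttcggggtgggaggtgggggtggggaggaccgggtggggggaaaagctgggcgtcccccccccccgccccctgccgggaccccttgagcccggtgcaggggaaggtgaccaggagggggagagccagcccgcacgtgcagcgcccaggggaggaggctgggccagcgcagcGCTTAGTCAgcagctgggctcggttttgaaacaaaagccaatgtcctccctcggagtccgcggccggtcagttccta

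All 8 genes passed the filter on low counts, which left 2639 genes. Each did so through CTRL, the group with its high counts, so passing the filter is itself part of the choice. In MODEL1, 7 of the 8 genes had all 3 libraries below all CTRL libraries, where 17.4% of tested genes did, and in MODEL2 all 8 did, where 12.3% did. By edgeR's quasi-likelihood test at an adjusted p of 0.05, the same comparisons that chose the genes called 7 of 8 lower in MODEL1 (11.0% of tested genes) and 6 of 8 lower in MODEL2 (4.96%). The gene not called in MODEL1 was Rhobtb1, and those not called in MODEL2 were Gpr171 and Mfhas1. With age as a covariate 6 and 2 of the 8 were called, the 2 being Olfr541 and D7Ertd143e, and without the 3 libraries rich in Rn45s 5 and 5. Their median log2 fold change was -4.34 in MODEL1 and -3.29 in MODEL2, beside medians over all tested genes of -0.00014 and 0.0016. The comparisons share the CTRL libraries.

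Ordered by size among called falls, Olfr541 stood at rank 1 of 289 in MODEL1, D7Ertd143e at 4, Gpr171 at 5, Mfhas1 at 6, Crip3 at 8, Ackr2 at 12 and Btf3l4 at 42. Genes that were not picked lay between them, among them Gm16551 at rank 2, Txnip at 3, Nlrp5-ps at 7 and Pck1 at 9. In MODEL2, Olfr541 was at rank 2 of 131, after Txnip, and Btf3l4, D7Ertd143e, Rhobtb1 and Crip3 followed at ranks 3 to 6, with Ackr2 at 12. The choice had no fixed threshold, and Syngr2 (log2 fold change -3.15 ± 0.45, SE) came just after Crip3 (-3.19 ± 0.82) in MODEL2.

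**Figure D1:**
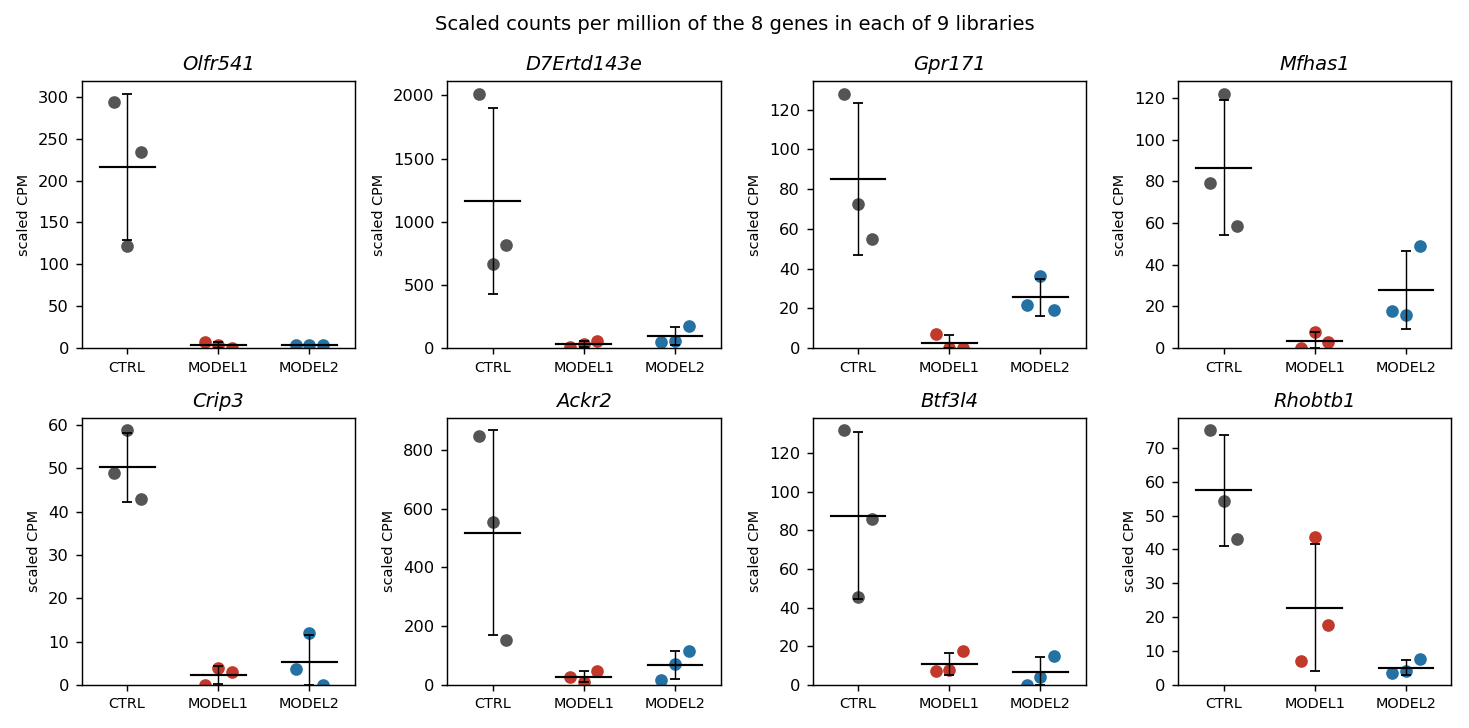
Scaled CPM (vertical axis, linear, a separate scale for each gene) of the 8 genes in CTRL, MODEL1 and MODEL2; each point is 1 library, the horizontal line is the mean of 3 libraries and the bar is 1 SD, cut at 0. Only the panel of Rhobtb1 has a model library, MODEL1 replicate 2, at the height of the lowest CTRL library.

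Per kilobase of exon, mean CTRL levels ran from 522 scaled CPM per kb for D7Ertd143e (its whole span taken as exon) to 9.46 for Rhobtb1. Between these lay Ackr2 at 166, Olfr541 at 132, Gpr171 at 38.2, Crip3 at 33.0, Btf3l4 at 19.3 and Mfhas1 at 13.0. The CTRL libraries of D7Ertd143e did not overlap those of Ackr2 on this scale, while those of Ackr2 and Olfr541 overlapped, as did those of each later gene with the next except from Olfr541 to Gpr171. D7Ertd143e and Ackr2 were also the highest of the 8 in both models, at 14.8 and 8.85 scaled CPM per kb in MODEL1 and 41.9 and 21.7 in MODEL2. Rhobtb1, the lowest in CTRL, came next after these in MODEL1 at 3.74 and was the lowest in MODEL2 at 0.833.

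The 3 genes of cell-surface receptors differed in how the models compared. Olfr541 (chr7:140697267-140705606, plus strand) had raw counts of 78, 27 and 60 in CTRL, of 2, 1 and 0 in MODEL1, and of 1 in each MODEL2 library. The mean was 217 ± 87.1 scaled CPM in CTRL (SD, n = 3), 3.67 ± 3.54 in MODEL1 and 3.80 ± 0.224 in MODEL2. Both models were thus near the level of 1 count, far below every CTRL library. The ratio of scaled counts to CTRL was 0.0154 in MODEL1 (exact 95% counting interval 0.00314 to 0.0458) and 0.0171 in MODEL2 (0.00348 to 0.0507), and the intervals after later ratios are of the same kind. The fitted log2 fold changes were -5.80 ± 0.62 (SE) and -5.68 ± 0.62. The fitted difference of MODEL2 from MODEL1 for Olfr541 was 0.12 ± 1.07 (SE) on the log2 scale.

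Gpr171 (chr3:59096448-59101821, minus strand) had counts of 34, 16 and 14 in CTRL, of 2, 0 and 0 in MODEL1 and of 6, 9 and 5 in MODEL2. MODEL2 lay between the other groups with no overlap on either side. Its means were 85.0 ± 38.2 scaled CPM for CTRL, 2.36 ± 4.08 for MODEL1 and 25.5 ± 9.33 for MODEL2 (SD, n = 3). The ratio to CTRL was 0.0265 in MODEL1 (0.00314 to 0.0996) and 0.293 in MODEL2 (0.168 to 0.491). The fitted log2 fold changes were -4.96 ± 0.82 and -1.73 ± 0.59, and that of MODEL2 against MODEL1 was 3.23 ± 0.93. MODEL1 replicate 1 held both counts of Gpr171 in its group; without it the fitted value, which then depends on the prior count, was -7.51.

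Ackr2 (chr9:121898355-121911074, plus strand) had counts of 225, 123 and 39 in CTRL, of 8, 2 and 16 in MODEL1 and of 5, 18 and 30 in MODEL2. CTRL spanned a wide range, with the 17-week-old mouse (replicate 3) lowest, but no model library reached it, and the models overlapped each other. Means were 518 ± 349 scaled CPM for CTRL, 27.7 ± 19.5 for MODEL1 and 68.0 ± 48.0 for MODEL2 (SD, n = 3). Relative to CTRL, the ratio of scaled counts was 0.0569 (0.0367 to 0.0847) for MODEL1 and 0.128 (0.0945 to 0.172) for MODEL2. Fitted log2 fold changes were -4.14 ± 0.59 and -2.93 ± 0.54. With age in the model they were -3.01 ± 0.89 and -1.10 ± 1.28, so the MODEL2 value of Ackr2 was within its error of 0 once age was a term.

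D7Ertd143e, the noncoding RNA of the microRNA locus, had the highest level per kilobase of the 8 in every group. Its counts were 535, 148 and 208 in CTRL, 3, 9 and 18 in MODEL1 and 14, 14 and 46 in MODEL2. Means were 1165 ± 738 scaled CPM for CTRL, 33.0 ± 21.2 for MODEL1 and 93.6 ± 70.0 for MODEL2 (SD, n = 3). CTRL replicate 1 alone held more counts than the other libraries together, and the models overlapped each other, since the highest MODEL1 library lay above the lowest of MODEL2. As a ratio to CTRL, scaled counts were at 0.0285 (0.0191 to 0.0410) in MODEL1 and 0.0779 (0.0606 to 0.0988) in MODEL2. Fitted log2 fold changes were -5.09 ± 0.51 and -3.64 ± 0.45, and that of MODEL2 against MODEL1 was 1.46 ± 0.57. Without CTRL replicate 1 the values of D7Ertd143e against CTRL were -4.43 and -2.98.

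The genes of signalling and ubiquitin ligase proteins, Mfhas1 and Rhobtb1, had their lowest mean in different models. Mfhas1 (chr8:35587798-35679449, plus strand) had counts of 21, 27 and 15 in CTRL, of 0, 2 and 1 in MODEL1 and of 5, 4 and 13 in MODEL2. Its means were 86.6 ± 32.4 scaled CPM for CTRL, 3.61 ± 4.0 for MODEL1 and 27.7 ± 18.6 for MODEL2 (SD, n = 3). No 2 groups overlapped, and MODEL2 replicate 3 came nearest to CTRL. Scaled counts over those of CTRL gave a ratio of 0.0403 (0.00810 to 0.123) in MODEL1 and 0.328 (0.192 to 0.540) in MODEL2. Fitted log2 fold changes were -4.47 ± 0.78 and -1.62 ± 0.58, with 2.85 ± 0.86 for MODEL2 against MODEL1. Without MODEL2 replicate 3 the MODEL2 value of Mfhas1 was -2.30, and without MODEL1 replicate 2 the MODEL1 value was -5.39.

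Rhobtb1 (chr10:69151434-69291791, plus strand) had the opposite order of model means. Its counts were 20, 12 and 11 in CTRL, 2, 11 and 6 in MODEL1 and 1, 1 and 2 in MODEL2. Means were 57.5 ± 16.4 scaled CPM for CTRL, 22.7 ± 18.8 for MODEL1 and 5.06 ± 2.19 for MODEL2 (SD, n = 3). MODEL1 replicate 2, at 43.5 scaled CPM, lay just above the lowest CTRL library at 42.9, so these groups overlapped. The models overlapped too, as MODEL1 replicate 1 was at 7.07 and MODEL2 replicate 3 at 7.58. The ratio to CTRL was 0.374 (0.206 to 0.656) for MODEL1 and 0.0873 (0.0227 to 0.240) for MODEL2. Fitted log2 fold changes were -1.36 ± 0.62 and -3.40 ± 0.78, with -2.04 ± 0.85 for MODEL2 against MODEL1. The MODEL1 value of Rhobtb1 was -2.14 without MODEL1 replicate 2 and -0.22 without the 3 libraries rich in Rn45s.

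Crip3 and Btf3l4 were low in both models. Crip3 (chr17:46428926-46431776, plus strand) had the tightest CTRL libraries of the 8 relative to their mean, with counts of 13, 13 and 11. MODEL1 held 0, 1 and 1 counts and MODEL2 1, 3 and 0. Means were 50.2 ± 7.99 scaled CPM for CTRL, 2.29 ± 2.05 for MODEL1 and 5.22 ± 6.20 for MODEL2 (SD, n = 3), so both models lay below CTRL and overlapped each other. Relative to CTRL, the ratio of scaled counts was 0.0458 (0.00535 to 0.177) for MODEL1 and 0.101 (0.0263 to 0.282) for MODEL2. The fitted log2 fold changes of Crip3 were -4.20 ± 0.91 and -3.19 ± 0.82, and MODEL2 against MODEL1 was 1.01 ± 1.24. The MODEL2 value of Crip3 was -4.47 without MODEL2 replicate 2, and the gene left the MODEL2 count of called genes in 6 of 17 other settings, among them those without CTRL replicate 1, CTRL replicate 2, MODEL2 replicate 1 and MODEL2 replicate 3.

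Btf3l4 (chr4:108814295-108833614, minus strand) had counts of 35, 10 and 22 in CTRL, of 2, 2 and 6 in MODEL1 and of 0, 1 and 4 in MODEL2. Means were 87.6 ± 43.3 scaled CPM for CTRL, 10.8 ± 5.83 for MODEL1 and 6.39 ± 7.85 for MODEL2 (SD, n = 3). Both models lay below CTRL and overlapped each other, and this was the only gene besides Rhobtb1 with the lower mean in MODEL2. As a ratio to CTRL, scaled counts were at 0.126 (0.0580 to 0.247) in MODEL1 and 0.0700 (0.0220 to 0.172) in MODEL2. Fitted log2 fold changes were -2.93 ± 0.68 and -3.71 ± 0.76, with -0.78 ± 0.93 for MODEL2 against MODEL1. Without MODEL2 replicate 3 the MODEL2 value of Btf3l4 was -5.23, and without MODEL2 replicate 1 it was -3.11.

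**Figure D2:**
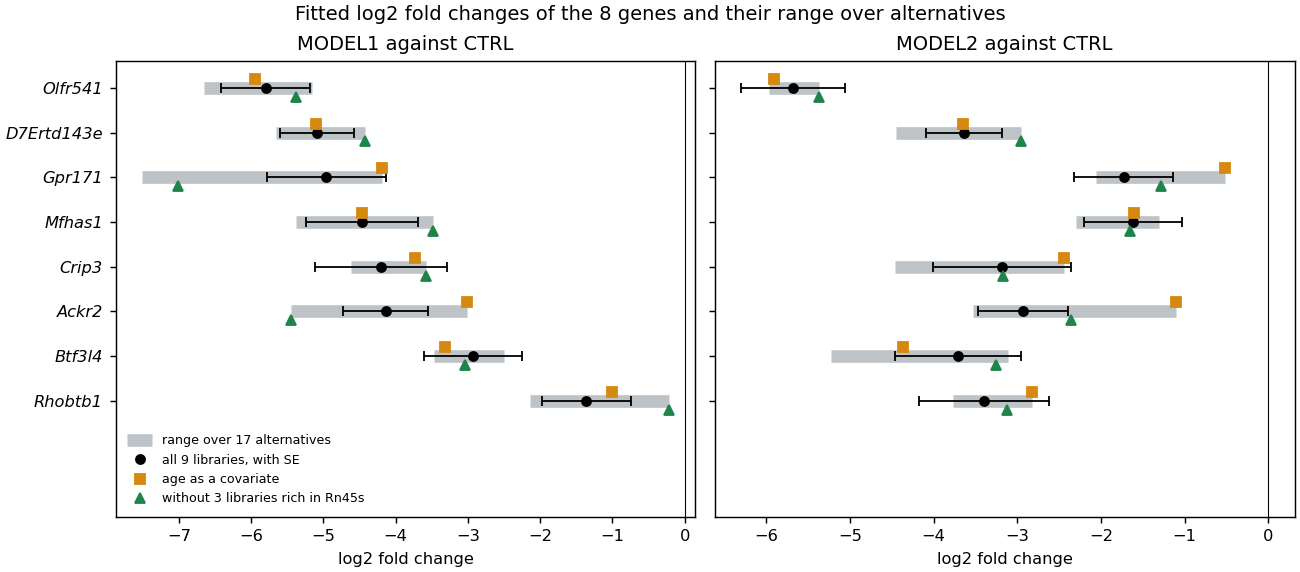
Fitted log2 fold change (horizontal axis) of the 8 genes in MODEL1 (left) and MODEL2 (right) against CTRL, where circles with bars are the fit to all 9 libraries with its SE, grey bars the range over 17 other settings, squares the fit with age as a covariate and triangles the fit without the 3 libraries with over 8% Rn45s. Every grey bar stays left of 0, while those of Rhobtb1 in MODEL1 and of Gpr171 in MODEL2 end at -0.22 and -0.51.

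The 8 genes did not share 1 ranking of libraries. Within CTRL, replicate 1 was highest for 6 of them and replicate 2 for Mfhas1 and Crip3, and the lowest was replicate 3, the oldest CTRL mouse, for 5 genes and replicate 2 for Olfr541, D7Ertd143e and Btf3l4. Within MODEL2, replicate 3 was highest for 5 genes and replicate 1 lowest for 5. CTRL replicate 1 is also the CTRL library richest in Rn45s, and its part in the results was not tested beyond the fit without it. In all 17 other settings each gene kept a negative log2 fold change in both models. Those settings use the libraries by which the genes were picked for their falls, so this is no test.

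Olfr541 lies at the end of a run of olfactory receptor genes on the plus strand of chromosome 7, and the genes just upstream of it were low in both models as well. Olfr45 ends 421 bases before Olfr541 and had counts of 49, 7 and 33 in CTRL, none in MODEL1 and 2 in MODEL2, both in replicate 3. In MODEL1 it was at least 35.0-fold lower than in CTRL, against 3 counts over the group, and in MODEL2 its ratio to CTRL was 0.0211 (0.00251 to 0.0784). Further upstream, Olfr539 at 18.7 kb had 33, 2 and 31 counts in CTRL, against 0 in MODEL1 and 2 in MODEL2, Olfr53 at 44.2 kb had 20, 0 and 1 over the 3 groups, and Olfr61 at 58.5 kb had 6, 0 and 0. The next ones, Olfr46 and Olfr538, had 0 counts in all 9 libraries. Along the run from Olfr61 to Olfr541, CTRL replicate 2 was the lowest CTRL library for each gene.

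On the other side of Olfr541, 58.1 kb downstream and on the same strand, lies Cyp2e1, the ethanol-oxidising cytochrome P450 of pericentral hepatocytes. It held 150 counts in CTRL, against 178 in MODEL1 and 113 in MODEL2, with log2 fold changes of 0.04 ± 0.33 (edgeR adjusted p = 0.955) and -0.51 ± 0.34 (adjusted p = 0.370). The low counts of the receptor run therefore did not extend to Cyp2e1; the difference between it and Olfr541 was not tested. Of the other olfactory receptors in the table none passed the filter, so Olfr541 alone of 1125 was tested. Olfr541 and the 4 genes from Olfr45 to Olfr61 held 346 of 442 olfactory receptor counts in CTRL (78.3%), 3 of 105 in MODEL1 (2.86%) and 8 of 113 in MODEL2 (7.08%). Olfr541, picked for its fall, held 165, 3 and 3 of these counts. The run was set after its values were seen and ends where the next genes upstream were at 0, so these shares are a description. The remaining 1120 receptor genes held 96, 102 and 105 counts, so their sum was about level across groups of similar depth. Olfactory receptor genes are similar in sequence, and how reads that fit several of them were counted is not given in the sources used here.

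**Figure D3:**
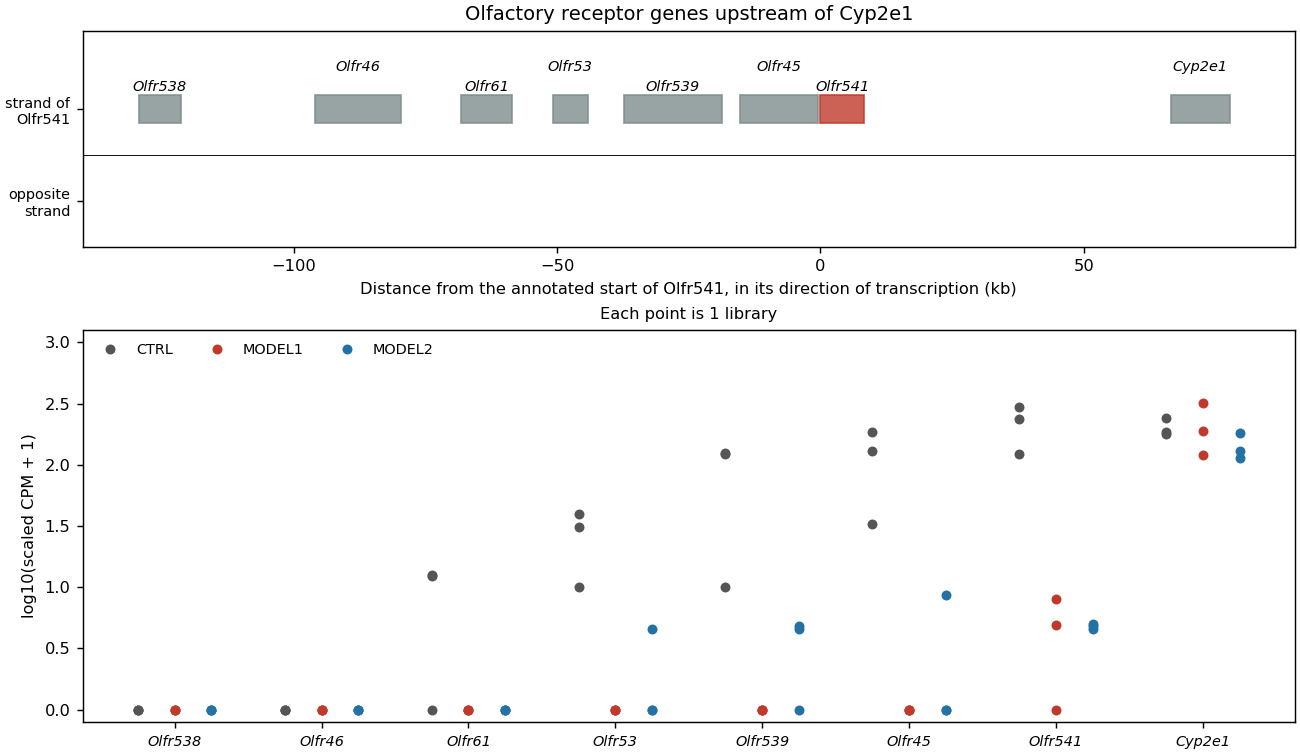
Top, gene bodies around Olfr541 (red) by strand, against distance in kb from its annotated start; bottom, log10 of scaled CPM plus 1 for each gene, with each point 1 library. The run from Olfr61 to Olfr541 has counts in CTRL and few or none in the models, and Cyp2e1 has counts in all 9 libraries.

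Opposite D7Ertd143e lie exons of Nlrp12, an inflammasome-family gene, and Mir292b, over all 2232 bases of its span. If the counting ignored strand, reads there cannot be assigned to 1 of these genes. Nlrp12 itself held 11 counts in CTRL, against 0 in MODEL1 and 2 in MODEL2. The Mir290a hairpin, printed above in capitals within the D7Ertd143e window, had counts of 26, 4 and 10 in CTRL, of 0, 0 and 3 in MODEL1 and of 0, 0 and 1 in MODEL2. Its ratio to CTRL was 0.0635 (0.0126 to 0.199) for MODEL1 and 0.0235 (0.000579 to 0.138) for MODEL2, so both features at this start were low in the models. The order of the CTRL libraries was the same for both, highest in replicate 1 and lowest in replicate 2. The 6 hairpins inside D7Ertd143e had 0 counts in every library. Reads in them fall within its span as well, and how such reads were assigned is not given. Libraries of this kind do not measure mature microRNAs. The nearest gene upstream on the same strand beyond Mir290a, Speer9-ps1 at 73.8 kb, held 47, 25 and 36 counts.

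Gpr171 lies within the body of Med12l, a Mediator subunit gene on the opposite strand with which it shares no exon bases. Med12l had similar sums in the 3 groups, with 22 counts in CTRL and 26 in each model, ratios of 1.00 (0.545 to 1.85) and 1.11 (0.604 to 2.05), and log2 fold changes of -0.05 ± 0.73 (edgeR adjusted p = 0.970) and 0.18 ± 0.73 (adjusted p = 0.911). The errors of Med12l are wide at this depth, and without the 3 libraries rich in Rn45s, which leaves 1 MODEL1 library, its MODEL1 value was -2.66 ± 1.56.

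The genes on the same strand as Gpr171 behaved otherwise. P2ry14, the receptor for UDP-sugars 12033 bases upstream, held 54, 13 and 29 counts and fell in MODEL1 by a log2 fold change of -2.29 ± 0.59 (edgeR adjusted p = 0.00595; 0.292 with age as a covariate). In MODEL2 its log2 fold change was -0.97 ± 0.53 (adjusted p = 0.257), and the difference between the models, 1.32 ± 0.62, had an adjusted p of 0.229. P2ry13, an ADP receptor at 106 kb, held 30, 6 and 19 counts, with a log2 fold change of -2.49 ± 0.90 in MODEL1 (edgeR adjusted p = 0.0513, past the threshold in 4 of the 16 other settings that gave a value) and -0.71 ± 0.77 in MODEL2 (adjusted p = 0.618). P2ry12, the platelet ADP receptor, held 17, 1 and 9 counts, too few for the test. These 3 receptor genes had their lowest sum in MODEL1, as Gpr171 did. Of the 2 tested, 1 was called lower there, where 11.0% of all tested genes were.

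At the far end of this run, 215 kb upstream of Gpr171, lies Igsf10, an immunoglobulin superfamily gene that was picked out after its values were seen. Its counts were 54, 54 and 77 in CTRL, 10, 4 and 5 in MODEL1 and 50, 12 and 27 in MODEL2. It fell in MODEL1 by a log2 fold change of -3.49 ± 0.46 (edgeR adjusted p = 6.3e-06) and in MODEL2 by -1.17 ± 0.38 (adjusted p = 0.0475), a call lost in 11 of 17 other settings, among them those without any 1 of the CTRL replicates, MODEL1 replicates 2 and 3 and MODEL2 replicates 2 and 3. The difference of MODEL2 from MODEL1 was 2.32 ± 0.48 (edgeR adjusted p = 0.0048, where 7.28% of tested genes were called), and its adjusted p was 0.0532 without MODEL2 replicate 1 and 0.0588 without the libraries rich in Rn45s. Igsf10, like Gpr171, was lowest in MODEL1. Pcsk1n, which encodes the precursor of the Gpr171 ligand, had 0 counts in all 9 libraries.

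**Figure D4:**
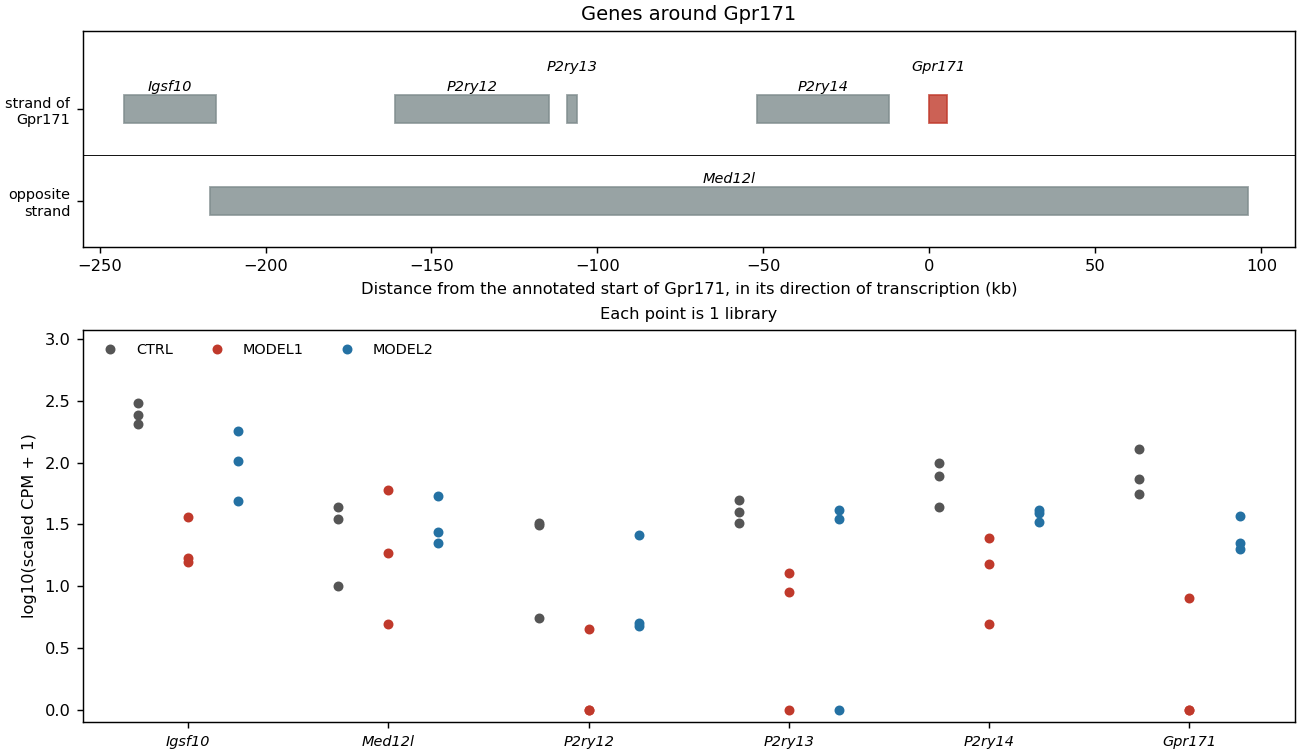
Top, gene bodies around Gpr171 (red) by strand, against distance in kb from its annotated start; bottom, log10 of scaled CPM plus 1 for each gene, with each point 1 library. The genes shown on the strand of Gpr171 have their lowest mean in MODEL1, and the MODEL1 points of Med12l, on the opposite strand, spread across those of CTRL.

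The nearest neighbour of Ackr2, 3281 bases away on the opposite strand, is Cyp8b1, the sterol 12-alpha-hydroxylase of bile acid synthesis, with counts of 24, 6 and 12 in CTRL, of 9, 6 and 4 in MODEL1 and of 2, 4 and 14 in MODEL2. The log2 fold changes of Cyp8b1 were -1.31 ± 0.67 (edgeR adjusted p = 0.175) and -1.11 ± 0.66 (adjusted p = 0.313), neither past the threshold. Its ratios to CTRL were 0.383 (0.210 to 0.673) and 0.447 (0.248 to 0.778), with intervals that cover counting error only. Higd1a, 40.0 kb on the other side, held 9, 1 and 4 counts.

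Among the atypical chemokine receptors, Ackr4, which scavenges the homeostatic chemokines of dendritic and T cell traffic, was read at high counts in all groups. It had 935, 1042 and 695 counts in CTRL, 615, 579 and 783 in MODEL1 and 893, 986 and 777 in MODEL2. Its CTRL mean of 3648 scaled CPM was above that of the hepatocyte marker Alb, at 1044. Whether the strand setting of the counting, which is not given, had a part in these levels was not tested. Ackr4 fell in MODEL1 by a log2 fold change of -0.69 ± 0.20 (edgeR adjusted p = 0.0125), a call lost without CTRL replicate 2, with age as a covariate (adjusted p = 0.723) and without the libraries rich in Rn45s (adjusted p = 0.169). In MODEL2 its log2 fold change was -0.11 ± 0.20 (adjusted p = 0.766). Ackr3 was at 0, and Ackr1 held 2 counts in CTRL, against 1 in MODEL1 and 0 in MODEL2.

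The inflammatory CC chemokines that Ackr2 binds were close to absent at this depth. The 10 genes listed held 0 to 3 counts per library in CTRL, 4 to 8 in MODEL1 and 1 to 3 in MODEL2, and none passed the filter. Of 10 CC chemokine receptors 2 were tested and neither passed the threshold. Ccr9 had log2 fold changes of -0.06 ± 0.30 (edgeR adjusted p = 0.918) and -0.63 ± 0.31 (adjusted p = 0.197), and Ccr10 of -0.81 ± 0.67 (adjusted p = 0.435) and 0.30 ± 0.62 (adjusted p = 0.811).

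Near Mfhas1 the closest transcript is Gm16793, which starts head to head with it on the opposite strand and shares 135 exon bases. Gm16793 held 163, 148 and 164 counts over the 3 groups, with log2 fold changes of -0.41 ± 0.35 (edgeR adjusted p = 0.453) and -0.14 ± 0.35 (adjusted p = 0.855). Neither difference of Gm16793 passed the threshold, and if the counting ignored strand, reads in the bases it shares with Mfhas1 cannot be assigned to 1 of them. The other ROCO genes, Lrrk1, Lrrk2 and Dapk1, were at 6 counts or fewer in every library and were not tested.

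Crip3 ends 406 bases from the end of Slc22a7, a hepatic organic anion transporter on the opposite strand. Slc22a7 had 5, 1 and 6 counts in CTRL, 0 in all MODEL1 libraries and 11, 0 and 0 in MODEL2. It was at least 4.72-fold lower in MODEL1 and its ratio to CTRL in MODEL2 was 0.860 (0.344 to 2.13), with every MODEL2 count in replicate 1, where Crip3 had a single count. The CRIP and CSRP genes other than Crip3 were too low to test. Csrp3 held 19, 2 and 1 counts over the 3 groups, with 14 of those in CTRL replicate 2. Crip2 held 0, 4 and 2 counts and Csrp2 2, 7 and 0, and Crip1 and Csrp1 were at 0 in every library.

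Btf3l4 has Txndc12 986 bases from it on the opposite strand, with 0 counts in CTRL and MODEL1 and 2 in MODEL2. The nearest abundant gene, 3110021N24Rik at 32.4 kb on that strand, held 296, 196 and 211 counts. It fell in MODEL1 with a log2 fold change of -0.82 ± 0.24 (edgeR adjusted p = 0.0150), a call lost in 5 of 17 other settings, among them those without CTRL replicate 1 and without MODEL1 replicate 3, and had -0.57 ± 0.24 in MODEL2 (adjusted p = 0.126). Naca, the alpha subunit of the complex to which the Btf3l4 paralogue belongs, held 27, 28 and 22 counts and Btf3 2, 8 and 8, so no other gene of this complex was tested.

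Rhobtb1 shares 15 exon bases with A930033H14Rik on the opposite strand, and its nearest measured neighbour with counts, Ank3 at 107 kb on its own strand, held 6, 19 and 8 counts, of which MODEL1 replicate 3 had 13. Of the listed genes of its family and of CUL3 ligases, Spop was the only one tested beside Rhobtb1, with log2 fold changes of 0.03 ± 0.66 (edgeR adjusted p = 0.977) and 0.55 ± 0.64 (adjusted p = 0.639). Rhobtb3 held 39, 15 and 15 counts, Cul3 3, 8 and 10 and Keap1 2, 9 and 9, all too few for the test.

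**Figure D5:**
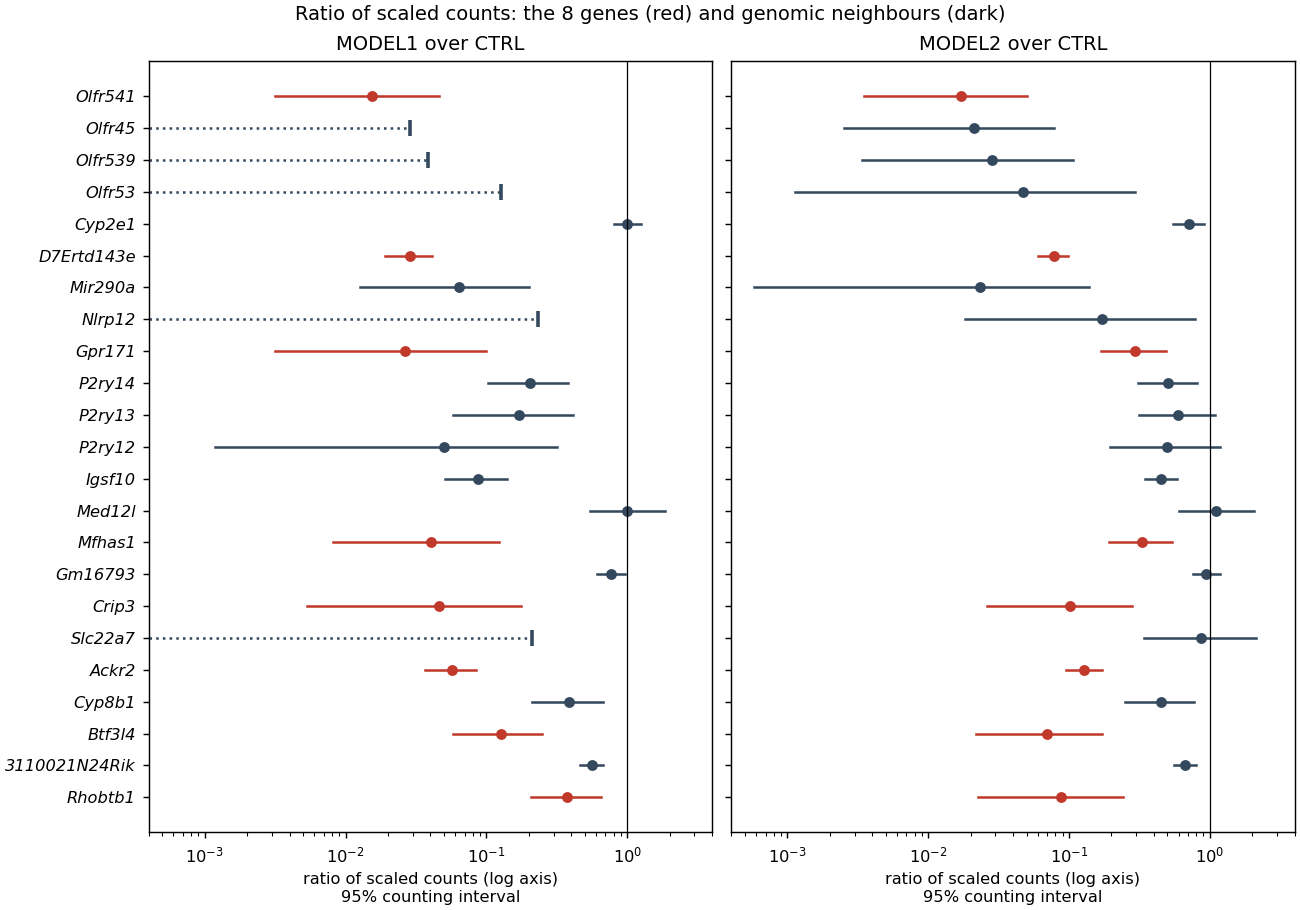
Ratio of scaled counts in MODEL1 (left) and MODEL2 (right) to CTRL on a log axis for the 8 genes (red) and their genomic neighbours (dark), with exact 95% counting intervals; a dotted line ending in a tick marks a model with 0 counts, set at 3 counts over the group. The 8 genes lie left of 1 in both panels. In MODEL1, Cyp2e1 and Med12l lie near 1 and Gm16793 lies at 0.769 (0.611 to 0.967).

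Markers of other cell types were counted beside these genes, since Ackr2 is known from lymphatic endothelium and Gpr171 from T cells. Of the 6 lymphatic markers Prox1, which hepatocytes also express, was the only one tested and fell in MODEL1 (log2 fold change -1.33 ± 0.45, edgeR adjusted p = 0.0361), while the defining markers Pdpn and Ccl21a were at 0 in all libraries. The lymphatic list summed to 16 to 35 counts per library in CTRL, 7 to 22 in MODEL1 and 12 to 22 in MODEL2. Its untested genes were near the floor, with Flt4 at 2, 4 and 2 counts, Lyve1 at 1, 4 and 1 and Reln at 4, 1 and 1. Of the 2 endothelial genes tested, Eng fell in MODEL1 (-0.95 ± 0.28, edgeR adjusted p = 0.0163), and Stab1, at 71, 62 and 45 counts, was not called. The untested ones went both ways, with Cdh5 at 1, 14 and 0 counts, Pecam1 at 2, 4 and 0 and Clec4g at 7, 0 and 8. The endothelial list summed to 114 to 119, 72 to 93 and 64 to 125 counts. The part of these markers in the levels of Ackr2 was not tested.

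T cell markers were at or near 0 in CTRL, at a depth where a gene at 0 could still have a level of up to 3 counts. Their part in the levels of Gpr171 was not tested. Cd3d, Cd3g, Cd2 and Cd4 were at 0 in every library, and the list of T and NK cell genes summed to 0 to 2 counts per library in CTRL, 34 to 57 in MODEL1 and 15 to 37 in MODEL2, nearly all of them from Thy1. Thy1 was at 0 in all CTRL libraries. Of the other lists, Kupffer and macrophage genes summed to 7 to 13, 22 to 27 and 8 to 10 counts, with Adgre1 at 0, cholangiocyte genes to 0, 3 to 4 and 0 to 1, B cell genes to 1 to 2, 0 to 3 and 0 to 3, and stellate genes to 3 to 6, 4 to 9 and 1 to 2. Of 8 hepatocyte markers tested, edgeR called 4 lower in MODEL1, where 11.0% of tested genes were, and 1 higher, where 313 of 2639 genes were. In MODEL2 it called 2 lower, where 4.96% were, and 0 higher.

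The genes most like each of the 8 across all libraries were taken as those with the highest Pearson correlation of log2 CPM over the 9 libraries, which share depth and group structure, so these values are a description. They were Igf1 (r = 0.976) and Rnf181 (0.973) for Olfr541, Adh7 and Parp4 (both 0.979) for D7Ertd143e, and 4930581F22Rik (0.970) and Slc27a5 (0.968) for Gpr171. For Mfhas1 they were E2f8 (0.978) and Timeless (0.971), for Crip3 Gm10532 (0.971) and Saa4 (0.956), and for Ackr2 Zbtb5 (0.986) and Lsr (0.941). Btf3l4 was closest to Smarca2 (0.953) and Serpind1 (0.945), and Rhobtb1 to 3110002H16Rik (0.943) and Zbtb45 (0.932). None of the 8 was among the closest genes of another of them.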

How the data were processed

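The authors deposited 1 table of raw counts per gene symbol for 9 liver libraries. Build mm10 and the tools HTSeq 0.11.2, HISAT2 2.1.0 and Trimmomatic 0.38 are named per the submitters' processing notes, with the role of each tool, the annotation and the strand setting not given in the sources used here. Groups were taken from the labels. The 8 genes, the gene lists and the tests were chosen with earlier results of these data known. With edgeR 4.0.16 (R 4.3.3), filterByExpr by group (minimum count 10) left 2639 genes, TMM factors scaled the libraries, and a quasi-likelihood model with a term for each group used all 9 libraries. F tests were two-sided, with Benjamini-Hochberg adjustment over all genes tested and a threshold of 0.05. The SE was taken as the log2 fold change over the root of F, without sign. The common biological coefficient of variation (0.259) describes the spread. Ratios are sums of counts over summed scaled library sizes, with exact (Clopper-Pearson) 95% intervals; intervals and the floor of 3 counts cover counting error only. The script was checked on simulated counts. No replicate pair was identical. Genes were placed with GENCODE M21, and D7Ertd143e with RefSeq, both on mm10; 7 of the 8 matched GENCODE. The rule for genes named was the 8 genes, genes overlapping or nearest to them, tested genes of the lists, and the 2 genes most correlated with each; Igsf10, the other genes of the runs beside Olfr541 and Gpr171, and the genes between them in rank were added after their values were seen. Alternatives included other scaling (DESeq2 1.42.0), filters, a replicate block, age as a covariate and leaving out libraries. Not every gene near Gpr171 is reported here.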

Additional observations from a re-analysis of the deposited data

How the results depend on the processing

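At these depths changes of genes with few counts were not detectable. Of 17 other settings, those that moved the number of genes called by over 1.5 times were as follows. In MODEL1 against CTRL, 602 genes were called, 299 with age as a covariate (170 higher, 129 lower) and 299 without libraries with Rn45s over 8% (166 higher, 133 lower), which leaves MODEL1 with 1 library assumed to vary like the others. In MODEL2 against CTRL, 350 were called, 72 with age (50 higher, 22 lower) and 210 without the Rn45s-rich libraries; CTRL replicate 1 decided most, with 223 called without it. In MODEL2 against MODEL1, 192 were called, 101 with age and 62 without the Rn45s-rich libraries. Leaving out 1 library gave 497 to 636, 223 to 374 and 85 to 226 calls in the 3 comparisons, and in the last of these the counts were 88 and 111 without MODEL1 replicates 2 and 3, and 85, 118 and 98 without MODEL2 replicates 1, 2 and 3. The replicate block gave 543, 291 and 125 calls; same-numbered libraries correlated at -0.121 to 0.0103, so the samples share only a number. The cause of these differences was not tested. Leaving out the Rn45s-rich libraries moved the median log2 fold change of MODEL2 against MODEL1 by 0.104. All 8 genes kept their sign against CTRL in all 17 settings. As these refit the libraries that chose the genes, the kept sign is a description.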
